A study of Mus musculus with 12 samples.

Results

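The Wnt ligands, their receptors, their secreted antagonists and the proteins that carry the signal inside the cell were followed in RNA sequencing of retinal pigment epithelium (RPE), the pigmented layer behind the retina, from mice labelled as conditional Sox9 knockouts (cKO) and from wild-type (WT) mice. Members were chosen by gene symbol alone: the Wnt, Fzd, Sfrp, Dkk and Rspo families, Axin1, Axin2, Lrp5, Lrp6, and a named set made up of Wif1, Frzb, Lgr4, Lgr5, Znrf3, Rnf43, Ctnnb1, Nkd1, Nkd2, Lef1, Tcf7, Tcf7l1 and Tcf7l2. The rule found 52 of the 13942 genes in the table: 14 Wnt ligands, 8 R-spondins with the receptors and ligases they act on, 12 receptors, 9 secreted antagonists and 9 intracellular effectors.

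The 12 libraries form 4 groups of 3: cKO at postnatal day 5 (P5), WT at P5, cKO at the embryonic age E15.5 and WT at E15.5. All came from the strain C57BL/6J and from polyA RNA, and no group carried another allele or agent in the labels. The sources used here do not give the Cre line, the exons deleted, how RPE was dissected or whether libraries of a group came from separate animals, so p-values measure only the spread between these samples. Sox9 itself does not check the genotype labels, because a gene count adds up all exons: it had 2136, 2384 and 2928 in the libraries labelled cKO at P5 against 964, 1499.5 and 1111 in WT, which is opposite to the label, and 1034, 990.0 and 1006 in those labelled cKO at E15.5 against 1156, 1060.3 and 932 in WT. Directions below are therefore those of libraries labelled cKO.

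Wnt proteins are secreted lipid-modified signals that bind a Frizzled receptor together with LRP5 or LRP6. In the canonical branch this stops the scaffold Axin and its partners from destroying beta-catenin, which then enters the nucleus and switches on genes with the TCF/LEF factors; the non-canonical branch acts on cell polarity and movement instead. In the mouse eye, beta-catenin is needed for the outer optic cup to become RPE, where it acts on the RPE regulators Mitf and Otx2.

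Values are gene counts that the authors quantile-normalised, with everything under 50 set to 50, called the floor here. They carry no gene length, so levels of different genes are compared only per kilobase of exon. Of the 52 members, 51 exceeded the floor in 3 or more libraries and were tested. Wnt16, a ligand known from cortical bone, was at the floor in all 12 libraries. A gene was called at a Benjamini-Hochberg adjusted p under 0.05 over the 13523 genes tested, by limma on log2(value + 1). Fold changes on that scale understate the change of genes near the floor.

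Libraries at P5 were less alike than those at E15.5: the correlation between replicates across genes was 0.910 to 0.977 in P5 cKO and 0.840 to 0.966 in P5 WT, against 0.985 to 0.988 in E15.5 cKO and 0.990 to 0.993 in E15.5 WT. P5 WT replicate 3 stood apart: it was the lowest of its group for 32 of the 51 tested members, and its summed photoreceptor markers reached 147128, against 10522 and 20598 in the other two P5 WT libraries, 9888 to 77068 in P5 cKO and 6805 to 7215 at E15.5. Gnb1 made up most of the photoreceptor sums at E15.5, averaging 6006 in cKO and 6048 in WT. There, 17 of the 20 listed markers in cKO and 16 in WT were at the floor in all 3 libraries. In P5 cKO replicate 1 and P5 WT replicate 1, Gnb1 had 5787 and 6455. RPE markers were present in every library, with sums of 140951 to 224879 in P5 cKO, 123849 to 237517 in P5 WT, 25498 to 41925 in E15.5 cKO and 33138 to 46965 in E15.5 WT. Within the RPE list, Rpe65, the visual cycle isomerase, had 50, 50 and 50 in P5 cKO against 564, 479 and 178 in P5 WT, and every E15.5 library was at the floor. Markers of other tissues were present too. In the surface ectoderm, periocular mesenchyme and skeletal muscle lists more markers fell than rose with age, while their sums overlapped between the ages. Collagens made up most of the periocular mesenchyme sums. The ectoderm, mesenchyme and muscle lists are given with the ligands, and the lens list with Rspo4. In other lists most markers rose with age, where 17.6% of all genes rose in cKO and 15% in WT. These were 9 of 12 endothelium markers in cKO and 12 of 12 in WT, 8 and 7 of 9 Müller glia and astrocyte markers, and 12 of 19 tested photoreceptor markers in each genotype. Photoreceptor markers at the floor throughout E15.5 could not have fallen, nor could Gfap and S100b of the glia list.

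**Figure D1:**
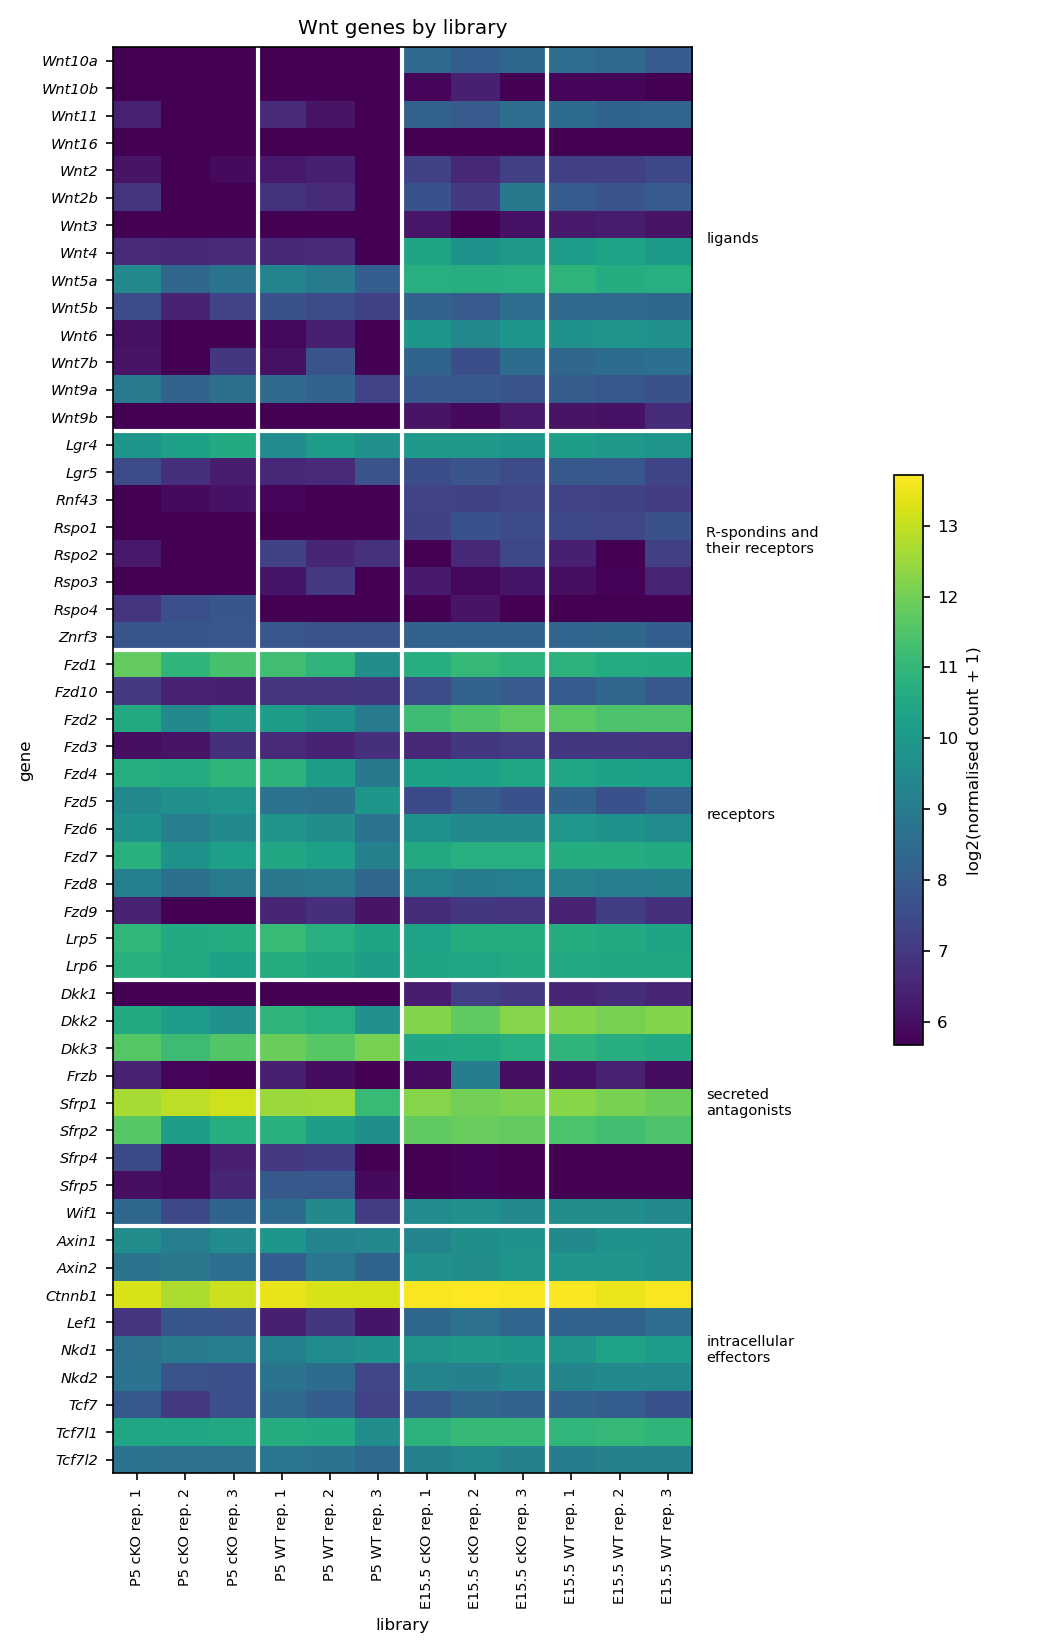
Each row is 1 of the 52 Wnt genes, grouped by role, each column 1 of the 12 libraries (P5 cKO, P5 WT, E15.5 cKO, E15.5 WT), and the colour is log2(normalised count + 1). Most ligand rows are darker (lower) in the 6 P5 columns, while Ctnnb1 and the Sfrp1, Sfrp2, Dkk2 and Dkk3 rows are bright in all columns.

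Promoter sequences were available for 35 of the 52 members. Those of 4 genes are shown, taken from RefSeq on build GRCm38.p6 as the 250 bases before the annotated start on the plus strand, with no GENCODE exon inside: Rspo4, the member called between genotypes (chr2:151842677-151842926), Axin2, a feedback gene widely used as a readout of canonical signalling (chr11:108920099-108920348), Wnt11 (chr7:98834862-98835111) and Tcf7l2 (chr19:55741560-55741809). Capitals mark 2 kinds of motif searched on both strands, the TCF/LEF letters CTTTGAA or CTTTGAT and the SOX letters AACAAT or ACAATG, which overlap where AACAATG occurs.
Rspo4: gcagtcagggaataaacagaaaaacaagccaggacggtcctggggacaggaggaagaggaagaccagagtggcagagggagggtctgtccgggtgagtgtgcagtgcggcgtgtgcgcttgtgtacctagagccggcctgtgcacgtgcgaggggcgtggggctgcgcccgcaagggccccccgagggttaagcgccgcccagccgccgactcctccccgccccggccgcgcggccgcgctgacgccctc
Axin2: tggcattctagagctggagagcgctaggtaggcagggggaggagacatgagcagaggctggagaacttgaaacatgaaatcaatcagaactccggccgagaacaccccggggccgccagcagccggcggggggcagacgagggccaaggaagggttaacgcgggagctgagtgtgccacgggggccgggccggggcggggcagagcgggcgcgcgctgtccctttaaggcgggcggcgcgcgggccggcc
Wnt11: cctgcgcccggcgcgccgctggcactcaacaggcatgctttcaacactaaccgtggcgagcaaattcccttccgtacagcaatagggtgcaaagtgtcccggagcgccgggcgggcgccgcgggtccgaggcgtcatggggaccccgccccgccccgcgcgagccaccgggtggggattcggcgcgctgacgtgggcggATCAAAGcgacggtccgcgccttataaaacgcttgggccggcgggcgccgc
Tcf7l2: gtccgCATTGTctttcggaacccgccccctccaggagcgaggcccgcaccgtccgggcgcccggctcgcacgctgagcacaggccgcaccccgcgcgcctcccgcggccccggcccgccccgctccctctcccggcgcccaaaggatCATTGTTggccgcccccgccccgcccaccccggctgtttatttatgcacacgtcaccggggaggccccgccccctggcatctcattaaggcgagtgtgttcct
The TCF/LEF letters stood in 2 of the 35 members' windows (5.71%), Wnt11 and Dkk1, and in 2079 of 27025 windows of all genes (7.69%). In the Wnt11 window they begin 51 bases before the start, on the minus strand. The SOX letters stood in 3 of 35 (8.57%), Tcf7l2, Fzd10 and Wnt16, against 4478 of 27025 (16.6%). Both SOX forms overlap at the second capital run of Tcf7l2, which begins 103 bases before the start. Neither motif was in the windows of Rspo4 or Axin2.

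Most Wnt ligands were lower after birth in both genotypes. In cKO libraries 9 of the 13 tested ligands fell between E15.5 and P5 and none rose, and in WT libraries 11 of 13 fell and none rose. Wnt3, Wnt9b, Wnt10a and Wnt10b passed the filter on low values only through their E15.5 libraries, being at the floor in all 6 P5 libraries, so they could not have risen. Of the other 9 ligands 8 fell in each genotype. Over all 51 members, 3 rose and 25 fell in cKO, where 43.7% of all genes tested were called (17.6% higher and 26.1% lower at P5), and 3 rose and 25 fell in WT, where 38.2% were called (15% higher and 23.2% lower). The median log2 difference of the members was -0.64 in cKO, against -0.08 for all genes, and -0.54 in WT, against -0.07 for all genes; with the genes at the floor set to their bound the member medians were -0.64 and -0.55. Rspo1 and Dkk1 were at the floor in all 6 P5 libraries as well, and of the 45 members left without these 6 genes, 3 rose and 22 fell in cKO and 3 rose and 20 fell in WT. The 45 still hold Rspo4, Sfrp4 and Sfrp5, which were at the floor in every E15.5 WT library and could not have fallen in WT. In E15.5 cKO these genes reached at most 67.7, so there was almost no room for a fall. The rises counted include Rspo4 in cKO and Sfrp5 in WT. In bulk tissue, fewer cells of a type and less RNA per cell cannot be told apart.

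**Figure D2:**
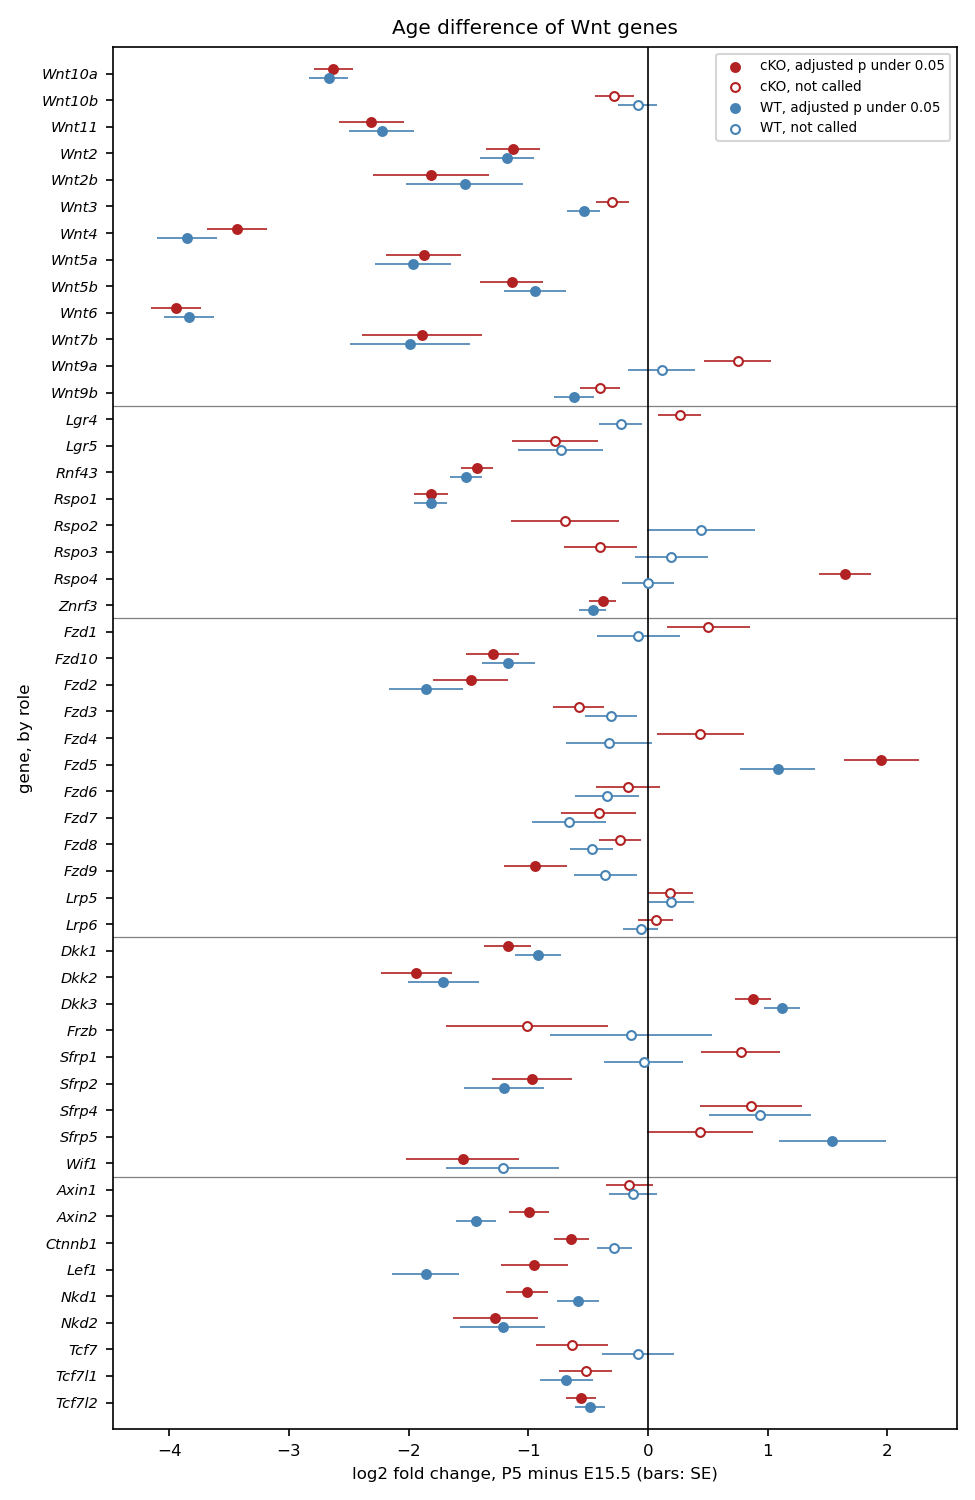
For each of the 51 tested Wnt genes, ordered by role, the x axis gives the log2 fold change P5 minus E15.5 in cKO (red) and in WT (blue), with the SE as bars; filled points have a limma adjusted p under 0.05 and open points were not called. The ligands at the top lie furthest to the left, to -3.94 for Wnt6 in cKO, and Fzd5 and Dkk3 lie to the right in both genotypes.

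Wnt6 and Wnt10a are neighbours on chromosome 1 (74771892 to 74785322 and 74791516 to 74804179, GRCm38, GENCODE M21, both on the plus strand, 6193 bases apart), and Wnt10a is known for its role in teeth and skin appendages. Wnt6 had 64.0, 50 and 50 in P5 cKO libraries against 953, 675 and 950.5 in E15.5 cKO, and 56.1, 82.3 and 50 in P5 WT against 902, 915 and 855 in E15.5 WT. Every P5 library was near or at the floor and every E15.5 library was more than 10 times higher than the floor, with no overlap. Its log2 fold change was -3.94 ± 0.21 (SE) in cKO (limma adjusted p = 1.5e-06) and -3.84 ± 0.21 in WT (limma adjusted p = 1.74e-06). Wnt10a was at the floor in all 6 P5 libraries, against 344.5, 268 and 336 in E15.5 cKO and 372, 350.5 and 259 in E15.5 WT. It was thus at least 6.33-fold lower at P5 in cKO (limma adjusted p = 3.28e-06) and at least 6.54-fold lower in WT (limma adjusted p = 2.81e-06).

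Wnt4 (chromosome 4, 137277489 to 137299726), a ligand of kidney tubule and ovary formation, had 98.5, 95.8 and 100 in P5 cKO against 1332, 882 and 1045 in E15.5 cKO, and 96.4, 101 and 50 in P5 WT against 1099, 1287 and 1074 in E15.5 WT. The groups were far apart in both genotypes, and the means differed 11.1-fold in cKO (log2 -3.44 ± 0.25 SE, limma adjusted p = 7.05e-06) and 14-fold in WT (-3.85 ± 0.25 SE, adjusted p = 3.78e-06). Wnt11, which guides cell movements without beta-catenin in the embryo, had 84.0, 50 and 51.1 in P5 cKO against 285, 253 and 379 in E15.5 cKO, and 97.5, 66.9 and 50 in P5 WT against 359.8, 308 and 312 in E15.5 WT. It fell by 2.31 on the log2 scale in cKO (SE 0.27, limma adjusted p = 0.000122) and by 2.23 in WT (SE 0.27, adjusted p = 0.000179). The counts of Wnt11, Wnt5a and Wnt7b could hold reads of another gene, since 364, 358 and 324 of their exon bases lie over one on the other strand and the sources used here do not give the strand setting of the counting.

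Wnt5a, the leading non-canonical ligand, fell but stayed above the floor. It had 704.5, 321 and 431.5 in P5 cKO against 1716, 1659.5 and 1698 in E15.5 cKO, and 629.9, 514 and 268 in P5 WT against 1931, 1615 and 1666 in E15.5 WT, with no overlap between the ages. The log2 fold change was -1.87 ± 0.32 (SE) in cKO (limma adjusted p = 0.000958) and -1.97 ± 0.32 in WT (adjusted p = 0.00087). Its close relative Wnt5b averaged 145 ± 52.4 (SD, n = 3) in P5 cKO against 309 ± 65.0 in E15.5 cKO, and 179 ± 25.9 in P5 WT against 343 ± 5.4 in E15.5 WT. Wnt7b, a signal in the development of blood vessels and lung, fell with log2 fold changes of -1.89 ± 0.50 (SE) in cKO (limma adjusted p = 0.0117) and -1.99 ± 0.50 in WT (adjusted p = 0.0103), and P5 WT replicate 2 was the highest P5 library at 217. Wnt2b, which in the chick eye marks the rim of the optic cup, fell with -1.81 ± 0.49 in cKO (limma adjusted p = 0.0124) and -1.53 ± 0.49 in WT (adjusted p = 0.03), and one E15.5 cKO library, replicate 3, read 484 where the other two read 208 and 129.5. Wnt2, a ligand of lung formation, fell as well, with averages of 58.4 ± 8.8 (SD, n = 3) in P5 cKO against 130.5 ± 29.7 in E15.5 cKO and 68.3 ± 16.4 in P5 WT against 153 ± 14.8 in E15.5 WT.

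Wnt3, Wnt9b and Wnt10b were at the floor in all 6 P5 libraries and close to it at E15.5, between 50 and 101. Wnt3 and Wnt9b, which lie 24328 bases apart on chromosome 11, fell in WT (limma adjusted p = 0.0119 and 0.015) and were not called in cKO (limma adjusted p = 0.109 and 0.0782). Wnt10b was called in neither. Wnt9a, a ligand of joint formation, was the exception among the ligands: it had 491, 299 and 399.8 in P5 cKO against 240.4, 239 and 215 in E15.5 cKO, and 348, 296 and 156 in P5 WT against 266, 236 and 202 in E15.5 WT. The cKO groups did not overlap, the WT groups did, and neither difference was called (limma adjusted p = 0.0507 in cKO and 0.767 in WT).

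The order of the ligands per kilobase of exon therefore differed between the ages. At P5 the first 3 were Wnt9a (119 per kb), Wnt5a (62.1) and Wnt5b (54.6) in cKO, and Wnt9a (80.1), Wnt5b (67.4) and Wnt5a (60.1) in WT. At E15.5 the first 4 were Wnt6 (392 per kb), Wnt4 (259), Wnt5a (216) and Wnt10a (128) in cKO, and the same genes in the same order in WT, from 406 for Wnt6 to 133 for Wnt10a.

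Surface ectoderm markers were split with age: 7 of the 9 fell in each genotype and 2, Krt8 and Krt18, rose. Sums over the list were 9901 to 20608 in P5 cKO and 12997 to 18325 in E15.5 cKO, and 4027 to 14443 in P5 WT and 10804 to 17439 in E15.5 WT. Krt8 and Krt18, keratins of simple epithelia, averaged 4272 ± 1371 and 10708.5 ± 3794 (SD, n = 3) in P5 cKO against 868 ± 218 and 2199.7 ± 459 in E15.5 cKO. They averaged 2336 ± 1286 and 5300.3 ± 2665 in P5 WT against 875 ± 174 and 2066 ± 249 in E15.5 WT. Epcam, Trp63 and Krt12 were at the floor in all 6 P5 libraries. Epcam had 657, 749 and 504 in E15.5 cKO and 629, 577 and 598 in E15.5 WT. Of 14 periocular mesenchyme markers, 5 fell and none rose in cKO, and 5 fell and 1, Pdgfrb, rose in WT, against 26.1% of all genes lower in cKO and 23.2% in WT. Their sums were 283530 to 649866 in P5 cKO, 481695 to 625456 in P5 WT, 451159 to 522538 in E15.5 cKO and 348829 to 534572 in E15.5 WT, and none of the 14 was at the floor throughout a group. Most of each sum came from the collagens Col1a1, Col1a2 and Col3a1, and Col1a1 had the same value, 274806, in every P5 WT and E15.5 cKO library. The sums therefore do not show the course of the less abundant markers. Those that fell in WT were Foxc2, Lum, Prrx1, Twist1 and Twist2. Of 12 skeletal muscle markers, 5 fell in cKO and 6 in WT and none rose. Their sums were 29337 to 73180 in P5 cKO, 14883 to 68580 in P5 WT, 41742 to 66783 in E15.5 cKO and 41971 to 77969 in E15.5 WT. Myog, the muscle differentiation factor, averaged 218 ± 129.7 (SD, n = 3) in P5 cKO against 1929.6 ± 329.6 in E15.5 cKO, and 121 ± 88.0 in P5 WT against 1984 ± 619.9 in E15.5 WT. Acta1, Tnnt3, Myh8 and Ckm went the other way, with higher means at P5 in both genotypes, though not called. Acta1 averaged 23608 ± 9929 in P5 cKO against 12023 ± 3788 in E15.5 cKO, and 16154 ± 13886 in P5 WT against 11537 ± 5122 in E15.5 WT. None of the 12 muscle markers was at the floor throughout a group. The part of these tissues in the fall of the ligands was not tested.

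**Figure D3:**
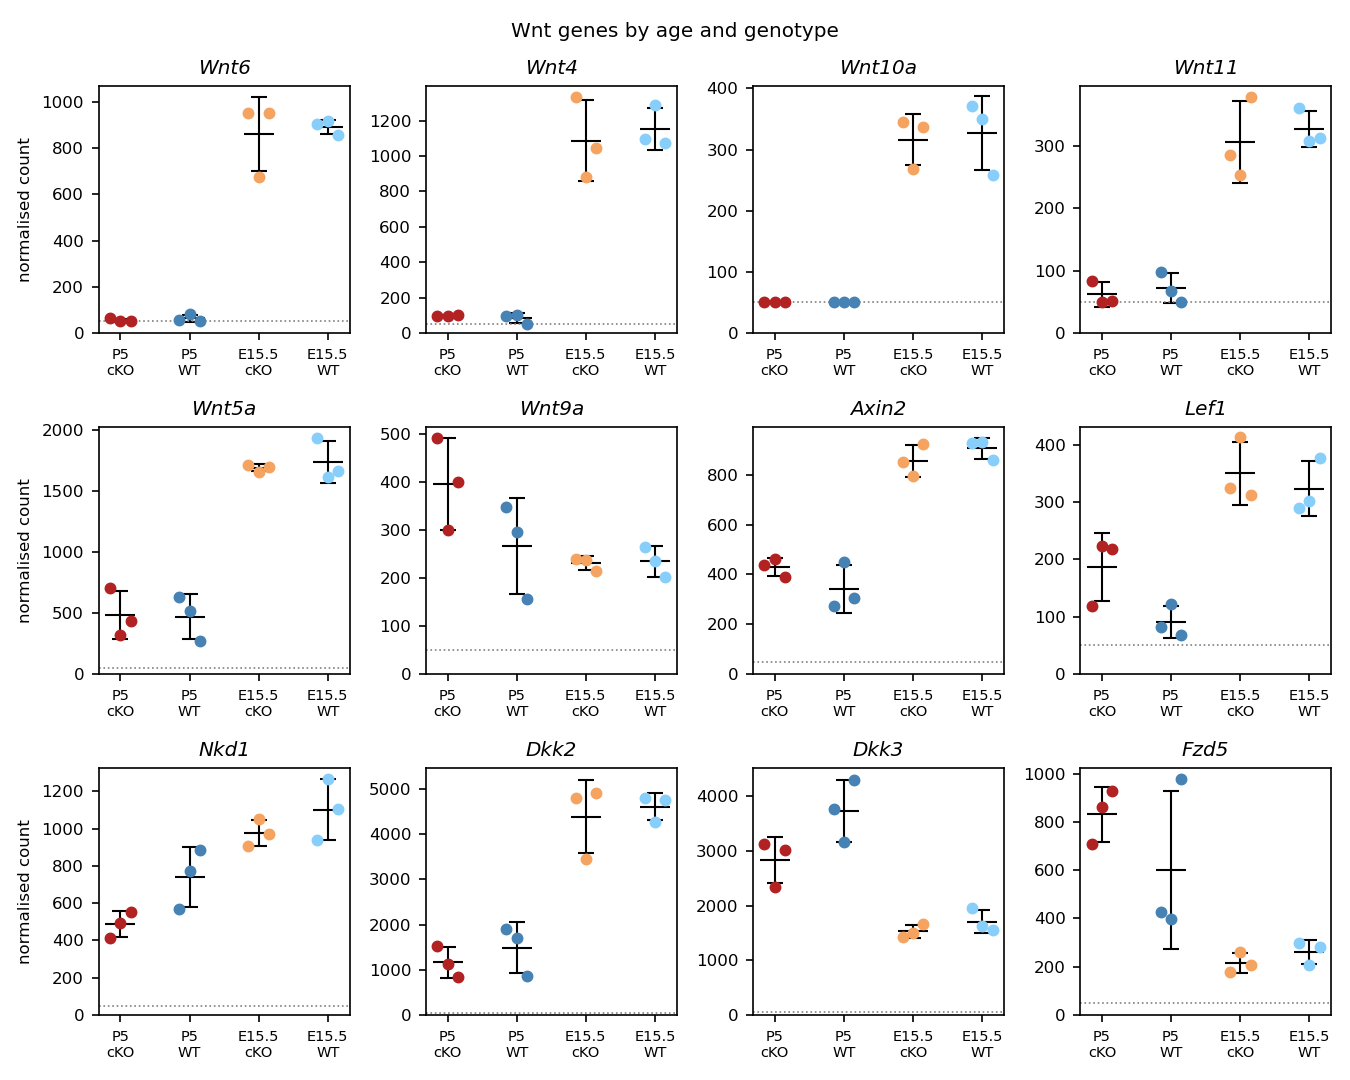
Points are the 3 libraries of each group for 12 Wnt genes (linear axis from 0, normalised count), with the mean and SD in black and the floor of 50 as a dotted line. Wnt6, Wnt4, Wnt10a and Wnt11 lie at or near the floor at P5, Axin2, Nkd1 and Dkk2 are lower at P5 without reaching it, and Dkk3 and Fzd5 are higher at P5.

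R-spondins strengthen a Wnt signal: they bind LGR receptors and draw off ZNRF3 and RNF43, the ligases that clear Frizzled receptors from the cell surface. Of these 8 members, 1 rose and 3 fell in cKO, where 17.6% of all genes rose and 26.1% fell. In WT 0 rose and 3 fell, where 15% of all genes rose and 23.2% fell. Rspo1, best known from ovary determination, was at the floor in all 6 P5 libraries, against 152, 205.5 and 181.5 in E15.5 cKO and 169, 168 and 200.2 in E15.5 WT, at least 3.59-fold lower in cKO (limma adjusted p = 9.48e-06) and 3.58-fold lower in WT (limma adjusted p = 1.1e-05). Both ligases fell: Rnf43 had 50, 58.1 and 65.4 in P5 cKO against 156, 147 and 168 in E15.5 cKO, and 54.3, 50 and 50 in P5 WT against 160.5, 147 and 140.4 in E15.5 WT. Its log2 fold change was -1.43 ± 0.14 (SE) in cKO (limma adjusted p = 3.5e-05) and -1.52 ± 0.14 in WT (adjusted p = 2.7e-05). Znrf3 changed less, by -0.38 ± 0.11 in cKO (limma adjusted p = 0.0202) and -0.46 ± 0.11 in WT (adjusted p = 0.00911). The receptor Lgr4 had the highest level per kilobase of this group at both ages, at 209 in P5 cKO, 152 in P5 WT, 171 in E15.5 cKO and 177 in E15.5 WT, and was not called with age, nor were Lgr5, Rspo2 and Rspo3. The rise in cKO was that of Rspo4, given with the genotype comparison.

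Of the 12 receptors, 1 rose and 3 fell in cKO, where 17.6% of all genes rose and 26.1% fell. In WT 1 rose and 2 fell, where 15% of all genes rose and 23.2% fell, so the receptors did not exceed these shares. Fzd2 had 1514, 703 and 1007.5 in P5 cKO against 2362, 2910.2 and 3406 in E15.5 cKO, and 1156, 900.2 and 520.2 in P5 WT against 3203, 2837 and 2827 in E15.5 WT, without overlap. Its log2 fold change was -1.48 ± 0.31 (SE) in cKO (limma adjusted p = 0.00334) and -1.85 ± 0.31 in WT (adjusted p = 0.00109). Fzd10 fell too, 2.47-fold in cKO (limma adjusted p = 0.000957) and 2.27-fold in WT (adjusted p = 0.00214), and Fzd9 fell in cKO (-0.94 ± 0.26 SE, limma adjusted p = 0.0147) with -0.36 ± 0.26 in WT (adjusted p = 0.306).

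Fzd5, a receptor needed for normal eye and retinal development, was the receptor that rose. It had 707, 863 and 928 in P5 cKO against 179, 262.5 and 207 in E15.5 cKO, and 426, 399 and 977 in P5 WT against 299.7, 205.5 and 281 in E15.5 WT. All P5 libraries lay above all E15.5 libraries, and P5 WT replicate 3 was the highest of the 12. The log2 fold change was 1.95 ± 0.31 (SE) in cKO (limma adjusted p = 0.000732) and 1.08 ± 0.31 in WT (adjusted p = 0.0195). With a term for photoreceptor signal the WT value was no longer called (0.35 on the log2 scale, limma adjusted p = 0.352). That signal did not overlap between the ages, so the adjusted value reaches beyond the libraries measured. Of the exon bases of Fzd5, 1233 lie over another annotated gene. The co-receptors Lrp5 and Lrp6 were not called, with means of 1722 ± 268 and 1493 ± 267 (SD, n = 3) in P5 cKO, 1737 ± 459 and 1395 ± 226 in P5 WT, 1508 ± 176 and 1413 ± 97.1 in E15.5 cKO, and 1487 ± 152 and 1442 ± 39.2 in E15.5 WT. Fzd4, the receptor for Norrin in retinal vessels, and Fzd1, Fzd3, Fzd6, Fzd7 and Fzd8 were not called in either genotype. Per kilobase, Fzd1 came first at P5 (645 in cKO and 406 in WT), and Fzd2 came first at E15.5 (789.7 in cKO and 807 in WT).

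Among the 9 secreted antagonists, 1 rose and 4 fell in cKO, where 17.6% of all genes rose and 26.1% fell. In WT 2 rose and 3 fell, where 15% of all genes rose and 23.2% fell. Dkk1 and Dkk2 block the co-receptors LRP5 and LRP6. Dkk2 (chromosome 3, 132085292 to 132180304) had 1537, 1118 and 846 in P5 cKO against 4808, 3451 and 4915.5 in E15.5 cKO, and 1911, 1707 and 856 in P5 WT against 4808, 4272 and 4756 in E15.5 WT. The ages did not overlap, and its log2 fold change was -1.94 ± 0.30 (SE) in cKO (limma adjusted p = 0.000559) and -1.71 ± 0.30 in WT (adjusted p = 0.00136). Dkk1 was at the floor in all 6 P5 libraries, against 78.5, 144.5 and 129.8 in E15.5 cKO and 92.0, 102 and 92.8 in E15.5 WT, so it was at least 2.35-fold lower in cKO (limma adjusted p = 0.0009) and 1.91-fold lower in WT (adjusted p = 0.00421).

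Dkk3 (chromosome 7, 112116017 to 112159057), a divergent relative of the co-receptor blockers, went the other way. It had 3123, 2343 and 3018 in P5 cKO against 1425, 1504 and 1665 in E15.5 cKO, and 3762, 3153 and 4284.5 in P5 WT against 1947, 1630.0 and 1544 in E15.5 WT. Every P5 library exceeded every E15.5 library, with log2 fold changes of 0.88 ± 0.15 (SE) in cKO (limma adjusted p = 0.00106) and 1.12 ± 0.15 in WT (adjusted p = 0.000295). Sfrp5, which binds Wnt proteins outside the cell, had 63.7, 56.8 and 91.8 in P5 cKO against 50, 53.0 and 50 in E15.5 cKO, and 244, 229 and 57.3 in P5 WT with all 3 E15.5 WT libraries at the floor. It rose in WT, at least 3.53-fold (limma adjusted p = 0.0194), and was not called in cKO (0.452). With E15.5 WT at the floor, a fall of Sfrp5 in WT was not possible. P5 WT replicates 1 and 2 were far above the other 10 libraries.

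Wif1, another secreted Wnt binder, fell in cKO (-1.55 ± 0.47 SE, limma adjusted p = 0.0215) and was not called in WT (-1.21 ± 0.47 SE, adjusted p = 0.0636). It had 336.5, 172 and 303 in P5 cKO against 755, 834.5 and 706 in E15.5 cKO, and 355, 705 and 136 in P5 WT against 779, 778 and 704 in E15.5 WT, where P5 WT replicate 2 reached the E15.5 range. Sfrp2 fell in both genotypes (-0.97 ± 0.33 SE in cKO, limma adjusted p = 0.0363; -1.20 ± 0.33 SE in WT, adjusted p = 0.0159). In cKO that call was lost without any 1 of 8 libraries (all but P5 cKO replicate 1 and the P5 WT libraries) and with a term for photoreceptor or lens signal, and the value turned to 0.077 with the photoreceptor term. Sfrp1, Sfrp4 and Frzb were not called with age. Per kilobase the antagonists were led by Sfrp1 (1774) and Sfrp2 (917) in P5 cKO, by Dkk3 (1111) and Sfrp1 (1077) in P5 WT, and by Sfrp2 (1646 in cKO, 1259 in WT) and Dkk2 (1185 in cKO, 1245 in WT) at E15.5.

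None of the 9 intracellular effectors rose with age, and 6 fell in each genotype, against 26.1% of all genes lower in cKO and 23.2% in WT. Axin2 (chromosome 11, 108920349 to 108950783), a scaffold of the destruction complex that canonical signalling itself switches on, had 437, 461 and 389 in P5 cKO against 851, 796 and 922 in E15.5 cKO, and 271, 449 and 304 in P5 WT against 927, 932 and 858 in E15.5 WT. No P5 library reached an E15.5 one, and the log2 fold change was -1.0 ± 0.17 (SE) in cKO (limma adjusted p = 0.000952) and -1.44 ± 0.17 in WT (adjusted p = 0.000139). Lef1 (chromosome 3, 131110471 to 131224356), the DNA-binding partner of beta-catenin that is also its target, had 118, 224 and 219 in P5 cKO against 324, 414 and 313 in E15.5 cKO, and 81.7, 122 and 68.3 in P5 WT against 289.7, 303 and 378 in E15.5 WT. It fell in both genotypes, with -0.95 ± 0.28 (SE) in cKO (limma adjusted p = 0.0192) and -1.86 ± 0.28 in WT (adjusted p = 0.000604). An antisense gene covers 1208 of the exon bases of Lef1.

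Nkd1 and Nkd2, which bind Dishevelled and dampen the signal, fell in both genotypes. Nkd1 had 414, 496 and 552 in P5 cKO against 906, 1049 and 973 in E15.5 cKO (-1.01 ± 0.18 SE, limma adjusted p = 0.00119), and 568.5, 772 and 883 in P5 WT against 939, 1264 and 1102 in E15.5 WT (-0.58 ± 0.18 SE, adjusted p = 0.0238). Nkd2 had log2 fold changes of -1.28 in cKO and -1.21 in WT (limma adjusted p = 0.0144 and 0.0209). With a term for photoreceptor signal Nkd2 was no longer called, at -0.17 in cKO (limma adjusted p = 0.493) and -0.14 in WT (adjusted p = 0.556). Of the other DNA-binding factors, Tcf7l2 fell in both (-0.56 in cKO and -0.49 in WT, limma adjusted p = 0.00499 and 0.0114), Tcf7l1, mainly a repressor, fell in WT (-0.68, limma adjusted p = 0.0331) with -0.52 in cKO (adjusted p = 0.0807), and Tcf7 was not called. Ctnnb1, which encodes beta-catenin, was the most abundant effector per kilobase in all groups (1609 in P5 cKO, 1951 in P5 WT, 2484 in E15.5 cKO and 2366 in E15.5 WT). It fell by 0.64 on the log2 scale in cKO (SE 0.15, limma adjusted p = 0.00519) and had -0.28 in WT (adjusted p = 0.153), and 782 of its exon bases are shared with Ulk4 or a miRNA gene. Axin1, the constitutive scaffold, was not called.

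The age comparisons in the 2 genotypes share no library, but both come from the same fit with a shared spread, so their calls are not independent. Of the 25 members that fell in cKO and the 25 that fell in WT, 22 were the same, 88% of each list, where all genes shared 77.2% of the cKO falls and 86.6% of the WT falls. Dkk3 and Fzd5 rose in both. Ctnnb1, Fzd9 and Wif1 fell and Rspo4 rose with a call in cKO but not in WT, and Tcf7l1, Wnt3 and Wnt9b fell and Sfrp5 rose with a call in WT but not in cKO. The difference between the age changes of the 2 genotypes was called for none of the 51 members (0.0592% of all genes), and 2, Rspo4 and Lef1, had an unadjusted p under 0.05 (2.65% of all genes). For Rspo4 it was 1.65 ± 0.31 (SE, limma adjusted p = 0.248) and for Lef1 0.91 ± 0.40 (adjusted p above 0.99). The next largest by their test statistic were Fzd5 (0.87 ± 0.44), Lgr4 (0.49 ± 0.26), Axin2 (0.44 ± 0.24), Rspo2 (-1.14 ± 0.64), Sfrp5 (-1.11 ± 0.63) and Ctnnb1 (-0.36 ± 0.21), all with limma adjusted p above 0.99. A term for photoreceptor signal kept 18 of the 28 age calls in cKO and 20 of 28 in WT, and changed the split to 13 higher and 16 lower in cKO and 8 higher and 18 lower in WT. The calls lost with it were those of Ctnnb1, Fzd9, Nkd2, Sfrp2, Tcf7l2, Wif1, Wnt2b, Wnt5b, Wnt7b and Znrf3 in cKO, and of Fzd5, Nkd2, Sfrp2, Tcf7l1, Tcf7l2, Wnt2b, Wnt5b and Wnt7b in WT. Among them Wif1 had -0.39 in cKO (limma adjusted p = 0.487) and Wnt2b had -0.73 in cKO (adjusted p = 0.256) and -0.49 in WT (adjusted p = 0.447). A term for lens signal kept 20 of the 28 calls in cKO and 26 in WT. It ended those of Ctnnb1, Dkk1, Fzd10, Lef1, Nkd1, Sfrp2, Wnt2b and Znrf3 in cKO, and of Nkd1 and Sfrp5 in WT. A fit to only the 2 groups compared kept 27 in cKO, losing Sfrp2. In WT it kept 20, losing Fzd5, Nkd1, Nkd2, Sfrp5, Tcf7l1, Tcf7l2, Wnt9b and Znrf3. Wnt6, Wnt4, Wnt10a, Wnt11, Wnt5a, Wnt2, Rspo1, Fzd2, Rnf43, Dkk2, Dkk3 and Axin2 were called in both genotypes under all alternatives that tested them.

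Some age calls were lost when 1 library was left out, several of them whichever library of a group it was. In cKO, Wif1 was not called without E15.5 cKO replicate 1 or 2 or P5 cKO replicate 2 (limma adjusted p up to 0.0789), and Fzd9 was not called without P5 cKO replicate 2 or 3 (0.061). Lef1 lost its call in cKO without E15.5 cKO replicate 2 or P5 cKO replicate 1 (limma adjusted p up to 0.0736). Nkd2 lost it without E15.5 cKO replicate 3 or P5 cKO replicate 2 or 3 (0.0606), Znrf3 without E15.5 cKO replicate 2 or 3 or P5 cKO replicate 3 (0.062), Wnt2b without P5 cKO replicate 3 (0.0506), and Sfrp2 reached 0.134. In WT, Sfrp5 was not called without any one E15.5 WT library or without P5 WT replicate 1 or 2 (limma adjusted p up to 0.0751), and Wnt2b without any one E15.5 WT library or P5 WT replicate 2 or 3 (0.082). Tcf7l1 lost its WT call without any one E15.5 WT library (limma adjusted p up to 0.0902), Nkd1 without E15.5 WT replicate 2 or 3 or P5 WT replicate 1 (0.0954), Nkd2 without E15.5 WT replicate 2 or 3 (0.0642), Fzd5 without E15.5 WT replicate 2 (0.0774) and Sfrp2 without E15.5 WT replicate 3 (0.0529). Without P5 WT replicate 3, the library that stood apart, 30 members were called with age in WT, 27 of them among the 28.

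Of the 74 tested genes of the pathway outside the rule, 9 rose and 29 fell with age in cKO (12.2% and 39.2%, against 17.6% higher and 26.1% lower of all genes). In WT 5 rose and 22 fell (6.76% and 29.7%, against 15% and 23.2%). Their median log2 difference was -0.30 in cKO, against -0.08 for all genes, and -0.21 in WT, against -0.07 for all genes. Among the 74, Kremen2, Lgr6, Notum and Sp5 were at the floor in all 6 P5 libraries, so they could not have risen. Ndp was at the floor in every E15.5 library and could not have fallen. The counts and medians include these genes. Receptors and polarity proteins of the non-canonical branch were among those that fell, 9 of 16 in cKO and 7 of 16 in WT, with none that rose. Ror2, a receptor for WNT5A, averaged 113 ± 89.6 (SD, n = 3) in P5 cKO against 758.5 ± 128 in E15.5 cKO, and 124.5 ± 77.6 in P5 WT against 752 ± 40.1 in E15.5 WT (log2 -3.00 ± 0.52 SE, limma adjusted p = 0.00107 in cKO; -2.77 ± 0.52 SE, adjusted p = 0.00203 in WT). Celsr1, a planar polarity cadherin, had -1.78 in cKO and -2.12 in WT (limma adjusted p = 0.000103 and 4.05e-05). Kremen2, which helps DKK proteins remove LRP6, was at the floor in all 6 P5 libraries, against 210.5, 215 and 197 in E15.5 cKO and 182, 259 and 242 in E15.5 WT. Among 8 target genes, Myc fell 3.79-fold in cKO and 4.07-fold in WT (limma adjusted p = 0.000943 and 0.00136), while Id2 rose 4.12-fold in cKO and 2.7-fold in WT (limma adjusted p = 0.000317 and 0.00333). Of the 19 modulators of ligand secretion and the extracellular space, Porcn, the enzyme that attaches the lipid to Wnt proteins, rose (0.83 ± 0.20 SE in cKO, limma adjusted p = 0.00643; 1.06 ± 0.20 SE in WT, adjusted p = 0.00194). Sostdc1, an inhibitor that binds LRP6 and BMPs, rose to 6018 ± 2013 (SD, n = 3) in P5 cKO, against 876 ± 450.2 in E15.5 cKO, and to 2186 ± 954 in P5 WT, against 724 ± 167 in E15.5 WT.

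Between the genotypes at P5 one Wnt gene was called: Rspo4, an R-spondin known from nail formation, was higher in the libraries labelled cKO. No other member passed, so 1 of 51 was called, against 0.244% of all genes tested (0.200% higher and 0.0444% lower in cKO). With an unadjusted p under 0.05 there were 10 members, against 7.68% of all genes. The median difference of the 51 members was 0.00, against -0.02 for all genes.

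Rspo4 (ENSMUSG00000032852, chromosome 2, 151842927 to 151874668, plus strand, GRCm38) had 119.9, 199.5 and 227 in P5 cKO, and all 3 P5 WT libraries were at the floor. In E15.5 cKO it had 50, 67.7 and 50, and E15.5 WT was at the floor as well. The 3 P5 cKO libraries were the only ones of the 12 above 100. With 4 libraries above the floor, Rspo4 passed the filter on low values only through the P5 cKO group, where it was high. A call in the other direction was therefore not possible. The level was at least 3.64-fold higher in P5 cKO than in P5 WT (log2 1.79 ± 0.22 SE, limma adjusted p = 0.00729, range 0.000364 to 0.587 over the alternatives), and it rose with age in cKO (1.65 ± 0.22 SE, limma adjusted p = 0.000225). A fit to only the 6 P5 libraries ended the call (adjusted p = 0.587; limma called no gene in it), as did the replicate number as a block within each age (limma adjusted p = 0.0576), while a filter on 6 libraries above the floor left the gene untested. Of the 15 lens markers, 13 were called higher with age in cKO and 0 in WT, against 17.6% and 15% of all genes. At the floor throughout E15.5 were 5 of them in cKO and 6 in WT, which could not have fallen with age. The WT differences of the 15 were positive but not called, from log2 0.58 (Crygs) to 1.78 (Crygb). Their summed level was 6752 to 13440 in P5 cKO, 831 to 7861 in P5 WT, 1114 to 1824 in E15.5 cKO and 976 to 1749 in E15.5 WT, with none of the 15 called between the genotypes at P5 and none at the floor throughout a P5 group. P5 WT replicate 2 had a lens sum of 7861 with Rspo4 at the floor, and P5 cKO replicate 2 had 6752 with Rspo4 at 199.5. With a term for lens signal Rspo4 had a log2 difference of 1.81 (limma adjusted p = 0.0476). A link of Rspo4 with lens tissue was not tested.

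**Figure D4:**
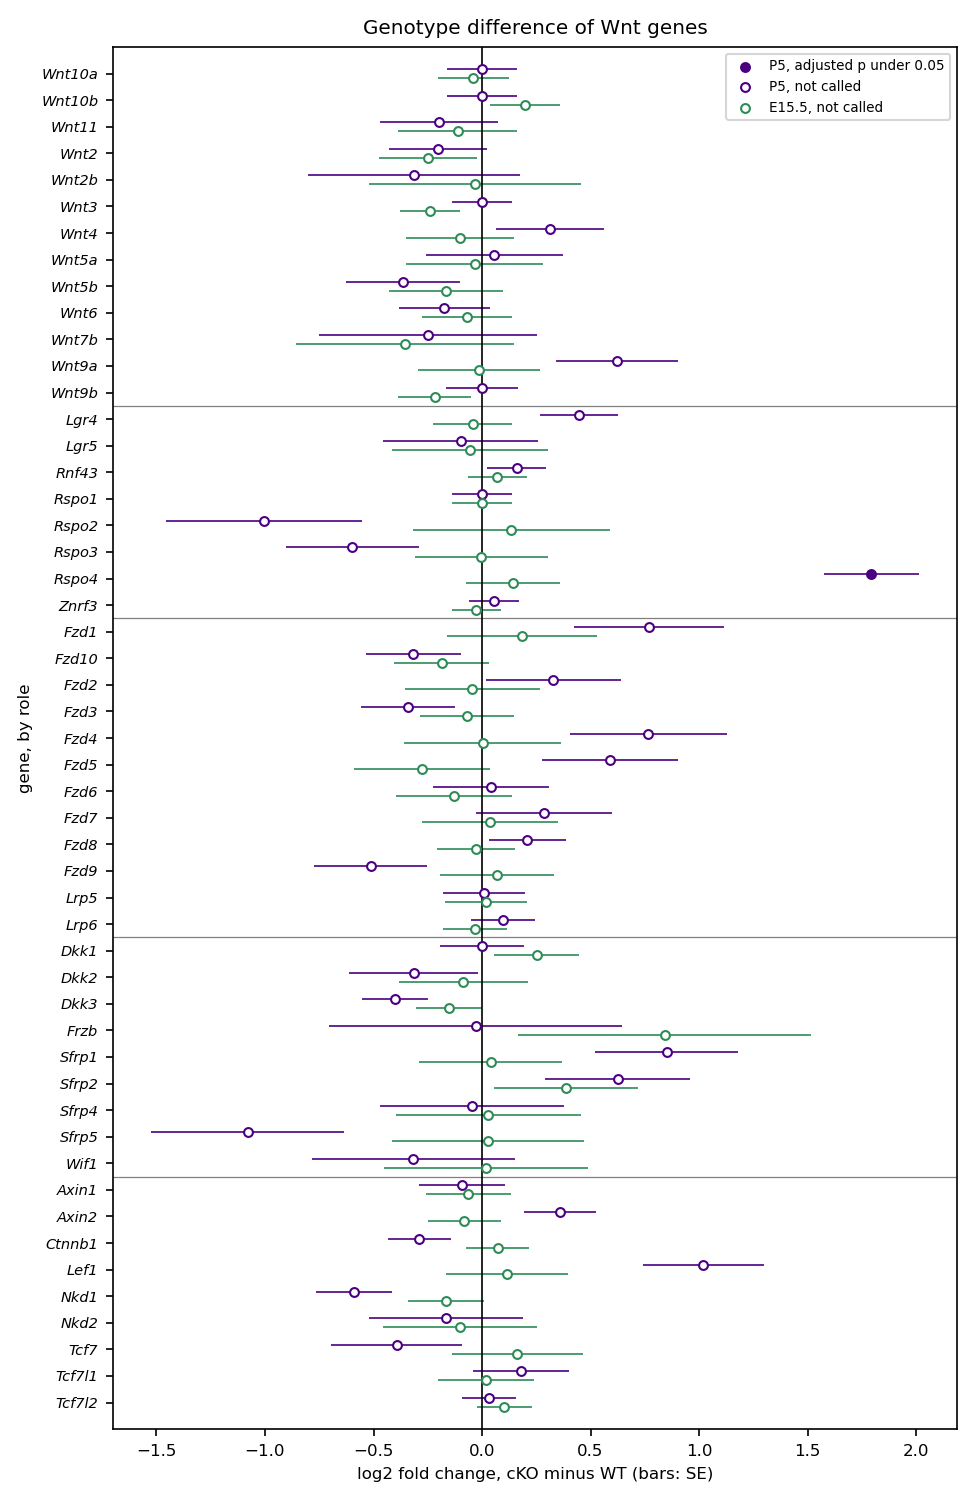
For each of the 51 tested Wnt genes, ordered by role, the x axis gives the log2 fold change cKO minus WT at P5 (purple) and at E15.5 (green), with the SE as bars; the filled point has a limma adjusted p under 0.05 and open points were not called. Rspo4 at P5, at 1.79, is the filled one, and every E15.5 point is open.

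The other members of largest test statistic at P5 were not called. Lef1, described above, had the 3 P5 cKO libraries at 118 to 224 and the P5 WT libraries at 68.3 to 122, an overlap of 1 library (log2 1.02 ± 0.28 SE, limma adjusted p = 0.318). Nkd1 was lower in every P5 cKO library than in any P5 WT library (-0.59 ± 0.18 SE, adjusted p = 0.375 by limma), and so was Dkk3 (-0.40 ± 0.15 SE, adjusted p = 0.55). Sfrp1, which binds Wnt proteins and Frizzled, had 6520.1, 7779 and 8964 in P5 cKO against 5848, 6114 and 2164 in P5 WT, where replicate 3 was far below the other two (0.85 ± 0.33 SE, limma adjusted p = 0.567). Rspo2 had 73.9, 50 and 50 against 147, 92.3 and 113 in the same groups, without overlap (-1.0 ± 0.45 SE, limma adjusted p = 0.647).

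Together 5 of the 51 members did not overlap between the genotypes at P5, against 6.18% of all genes. Rspo4 and Sfrp1 were higher in cKO, and Nkd1, Dkk3 and Rspo2 lower. Lgr4 (0.45 ± 0.18 SE), Sfrp5 (-1.08 ± 0.44), Fzd1 (0.77 ± 0.35) and Wnt9a (0.62 ± 0.28) complete the 10 with an unadjusted p under 0.05, with limma adjusted p between 0.587 and 0.647. Sfrp5 had 63.7, 56.8 and 91.8 in P5 cKO against 244, 229 and 57.3 in P5 WT. Without P5 WT replicate 3, which was the low library of its group, Sfrp5 was called lower in cKO, and without P5 cKO replicate 1 Lef1 was called higher. A term for photoreceptor signal added Fzd1, Nkd1, Sfrp2 and Wnt9a to the calls.

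**Figure D5:**
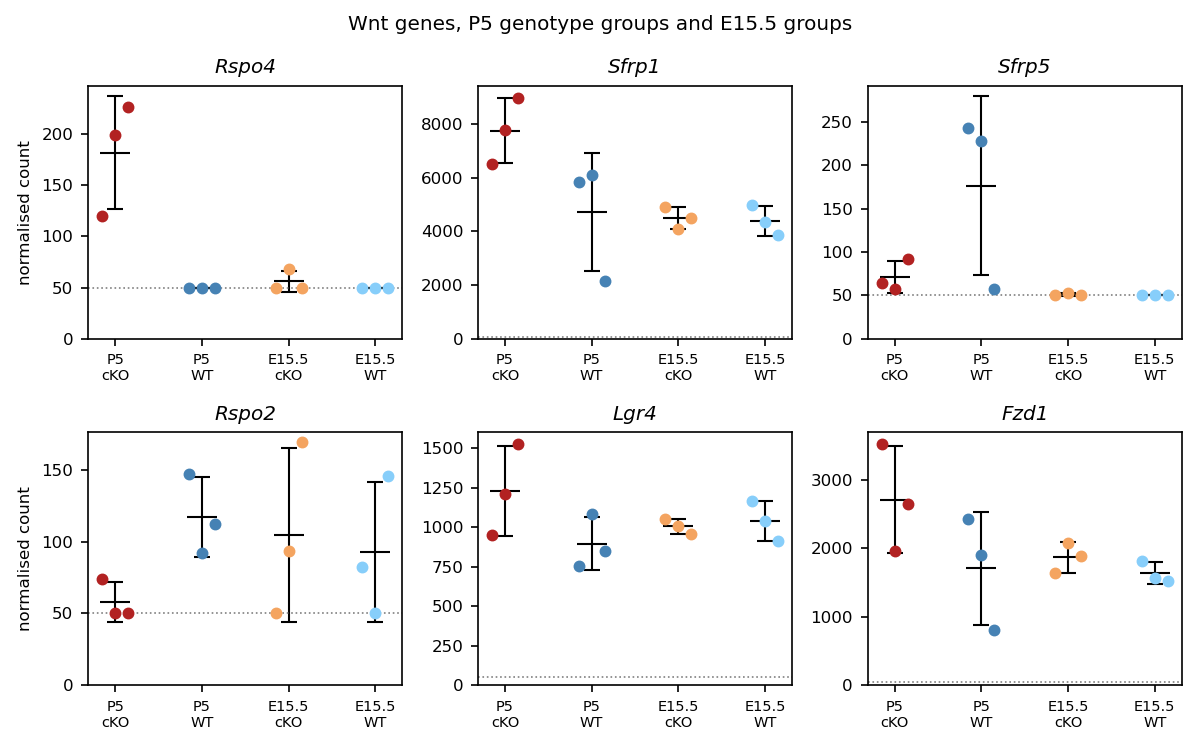
Points are the 3 libraries of each group for 6 Wnt genes (linear axis from 0, normalised count), with the mean and SD in black and the floor of 50 as a dotted line. Rspo4 lies at 120 to 227 in P5 cKO and at the floor in both WT groups; Sfrp5 is high in 2 of 3 P5 WT libraries.

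At E15.5 no Wnt gene was called between the genotypes, by limma, and no member had an unadjusted p under 0.05; of all genes 0.00739% were called and 0.362% had an unadjusted p under 0.05. The largest test statistics were those of the low ligands Wnt3 (-0.24 ± 0.14 SE) and Wnt9b (-0.22 ± 0.17). Sfrp2 was the one member without overlap (5.10% of all genes), with 3415, 3703 and 3512 in cKO against 2786, 2499 and 2845 in WT (0.39 ± 0.33 SE, limma adjusted p = 1). Frzb, which binds Wnt proteins in cartilage, rested on 1 library (0.84 ± 0.67 SE): E15.5 cKO replicate 2 read 524 and the other 5 E15.5 libraries between 58.4 and 84.1. Dkk1 (0.25 ± 0.20), Wnt10b (0.20 ± 0.16), Wnt2 (-0.25 ± 0.23) and Dkk3 (-0.15 ± 0.15) were the others of largest test statistic, all with a limma adjusted p of 1. None of the 74 pathway genes outside the rule was called between the genotypes at either age.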

How the data were processed

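RNA was measured in 12 libraries (4 groups of 3), assigned by title, genotype and age. The authors aligned reads with TopHat2 2.0.10 to mm10 and counted genes with HTSeq, per the submitters' processing notes. The deposited signal values are gene counts, quantile-normalised with a floor of 50 per the file name in the labels. All 12 columns held the same sorted values (sum 12618429, median 367.4, 9.87% at the floor), so the depth is unknown and no counting error could be given. The sources used here do not give the annotation release. Positions came from GENCODE M21, where 13927 of the 13942 IDs were found. limma 3.58.1 (R 4.3.3) was fitted to log2(value + 1) with 1 mean per group over all 12 libraries and a variance trend, two-sided, over the 13523 genes above the floor in at least 3 libraries; the fit was tested on simulated data. Exact permutation of 3 against 3 libraries cannot go below p = 0.1, so none is given. Members and gene lists were chosen with earlier results of these data known. Full statistics went to the 12 largest called rises and falls of a comparison, or, with under 8 called, to the 8 largest test statistics. Alternatives were another pseudocount, filter, variance model, centring or sample set, a replicate block, library weights, terms for photoreceptor or lens signal, and leaving out each library.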

Additional observations from a re-analysis of the deposited data

How the results depend on the processing

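The number of Wnt genes called between the genotypes at P5 was 1. It became 0 with a filter on 6 libraries above the floor, 0 with the replicate number as a block within age, 0 in a fit of the 2 groups compared, 2 with library weights (Sfrp5 added), 5 with a term for photoreceptor signal and 2 with a term for lens signal (Wif1 added), and 1 to 2 leaving out 1 library. In the interaction the count was 0, became 1 with library weights (Rspo4), and was 0 to 1 leaving out 1 library. Leaving out 1 library gave 24 to 38 age calls in cKO, 22 to 30 in WT, and 0 to 0 for genotype at E15.5. The highest count in cKO, 38, came without P5 WT replicate 3, a library that is not in that comparison and enters through the shared spread. The cause of these shifts was not tested. Over all genes, the P5 genotype count of 27 higher and 6 lower became 125 and 78 with the photoreceptor term, 123 and 86 with library weights, 14 and 27 with the lens term, and 0 and 0 in the fit of the 2 groups.

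Over all alternatives, 1 of the 28 members called with age in cKO and none of the other called members changed sign. Of the 51 tested members, called or not, 31 changed sign for genotype at E15.5, 20 for genotype at P5, 18 with age in cKO, 12 with age in WT and 30 in the interaction. Age differences with the photoreceptor term reach beyond the libraries measured, as given above. With that term, age changes of Fzd6 and Fzd7 in cKO and Fzd1, Fzd7 and Tcf7 in WT were called in the direction opposite to their uncalled values, as was Sfrp1 with age in WT without P5 WT replicate 3. The member median for genotype at E15.5, -0.03, became 0.0085 without E15.5 WT replicate 1 and 0.012 without E15.5 cKO replicate 1. Among the called members and the 8 largest test statistics of each comparison, values that changed sign were those of Frzb and Wnt10b at E15.5 without E15.5 cKO replicate 2, in ranges of -0.19 to 1.39 and -0.0070 to 0.34 over the libraries left out, and Sfrp2 with age in cKO (0.077) with the photoreceptor term.

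Whether the replicate numbers pair the samples could not be settled. Same-numbered deviations correlated at -0.02, 0.27 and -0.02 at E15.5 and at 0.78, -0.30 and 0.19 at P5. Differently numbered ones ranged from -0.22 to 0.22 at E15.5 and from -0.74 to 0.71 at P5. The highest value at each age was a same-numbered pair, but the others were mixed, and 3 pairs per age are too few to decide. With the replicate block, 1 member was called between genotypes at P5 (Rspo4, limma adjusted p = 0.0197), 30 with age in cKO and 28 with age in WT, and within each age the block gave 0 (Rspo4, limma adjusted p = 0.0576).

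The floor limits the low genes most: 8 members in P5 cKO, 8 in P5 WT, 1 in E15.5 cKO and 4 in E15.5 WT were at 50 in all 3 libraries, and a difference below that level could not be seen.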
